A study of Mus musculus with 23 samples.

Results

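The immediate-early response genes Fos, Fosb, Jun, Junb, Jund, Egr1, Ier2, Dusp1, Zfp36 and Klf6, were followed in single cells of mouse bone marrow. They were chosen by symbol, and all 10 were found among the 23536 gene rows of the deposited table. The study measured transcripts with CEL-seq, which tags the captured mRNA molecules of each cell before amplification. In the dissected group, marrow was flushed gently, structures of attached cells were trimmed and separated by hand with needles under a microscope, and each resulting cell carried its own barcode. In the sorted group, single haematopoietic stem cells (HSC) were taken by flow sorting as Lineage- Kit+ Sca1+ CD150+ CD48- cells. Cells of both groups went into Trizol; the sequencer was a NextSeq500 for dissected libraries, and either that or a HiSeq2500 for sorted ones. The labels name no strain, genotype, age or treatment for either group, and no animals. The study's purpose in dissecting was to record which marrow cells were attached to each other; the sorted cells add a defined stem cell population.

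Immediate-early genes are transcribed within minutes of a signal, from factors already present in the cell and without new protein synthesis, and their mRNAs are short-lived. Fos and Jun family proteins pair to form the transcription factor AP-1, Egr1 and Klf6 are zinc-finger transcription factors, Ier2 encodes a nuclear protein of the same early wave, and Dusp1 and Zfp36 act as brakes, Dusp1 by removing phosphate from MAP kinases and Zfp36 by speeding the decay of mRNAs with AU-rich elements. In marrow these genes are known from signalling in myeloid cells, and they are also known to respond to tissue handling. Sorting and hand dissection handle cells differently, and the sequencers differed in part, so cell type, handling and sequencer cannot be told apart in any comparison of the sorted with the dissected cells.

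The promoters of 4 members are shown because they hold letters that match known elements of signal-driven transcription, and because these members recur in the comparisons below. RefSeq's promoter table (build GRCm38.p6, the same assembly as the study's mm10) held 8 of the 10 members. Each line gives the 200 bases before the RefSeq start, 5′ to 3′ on the gene's strand, with matches in capitals. Fos lies at chr12:85473690-85473889 on the + strand, Junb at chr8:84978749-84978948 on the - strand, Zfp36 at chr7:28379229-28379428 on the - strand and Dusp1 at chr17:26508473-26508672 on the - strand.
Fos: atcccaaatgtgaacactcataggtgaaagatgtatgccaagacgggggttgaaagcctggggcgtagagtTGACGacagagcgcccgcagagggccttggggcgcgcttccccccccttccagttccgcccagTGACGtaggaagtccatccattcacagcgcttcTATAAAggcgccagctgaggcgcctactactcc
Junb: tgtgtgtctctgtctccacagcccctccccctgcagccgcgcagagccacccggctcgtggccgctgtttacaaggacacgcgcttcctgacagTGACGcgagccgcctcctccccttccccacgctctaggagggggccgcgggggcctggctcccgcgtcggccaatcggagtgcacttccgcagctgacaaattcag
Zfp36: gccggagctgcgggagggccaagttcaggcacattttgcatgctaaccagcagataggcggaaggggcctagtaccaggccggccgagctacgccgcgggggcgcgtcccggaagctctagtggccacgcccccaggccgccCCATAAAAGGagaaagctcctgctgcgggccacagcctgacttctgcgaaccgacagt
Dusp1: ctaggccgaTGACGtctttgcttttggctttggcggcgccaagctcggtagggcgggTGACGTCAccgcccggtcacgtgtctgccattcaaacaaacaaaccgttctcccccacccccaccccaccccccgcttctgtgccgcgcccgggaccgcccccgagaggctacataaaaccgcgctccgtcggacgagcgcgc
Capitals mark TGACG or its reverse complement CGTCA (the core of a CREB site, searched on both strands), the full palindrome TGACGTCA that contains it, the CArG box of serum response factor, and TATAAA on the gene's strand. Fos held TGACG from 129 and from 66 bases before the start, and TATAAA from 33 bases before it. Dusp1 held TGACG from 191 bases and the palindrome from 143 bases before the start. Junb held TGACG from 106 bases, and Zfp36 held a CArG box from 58 bases before the start.

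In the 250 bases before the start, TGACG was found in 4 of the 8 members, Fosb being the fourth, and in 17.8% of the 32851 promoters in the table. The palindrome was found in 1 of the 8 and in 1.55% of all promoters, the CArG box in 1 of the 8 and in 1.47%, and TATAAA in 1 of the 8 and in 7.59%. The AP-1 element TGAGTCA or its reverse complement was in none of the 8 windows and in 4.46% of all. These are matches of letters in a short window and describe sequence only. For Zfp36 and Dusp1 the printed bases lie within the gene spans of the GENCODE annotation given next, which places the start of these genes farther upstream than RefSeq does.

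In mm10 with the GENCODE vM21 annotation, all 10 members are protein-coding genes. Fos lies at chr12:85473890-85477273, Fosb at chr7:19302696-19310051, Jun at chr4:95049034-95052222, Junb at chr8:84974484-84978718 and Jund at chr8:70698949-70700616. Ier2 lies at chr8:84661331-84662852, Dusp1 at chr17:26505590-26562128, Zfp36 at chr7:28376784-28380253, Klf6 at chr13:5861482-5870394 and Egr1 on chromosome 18. Junb overlaps Prdx2 on the other strand, and Dusp1 overlaps Ergic1 and 3 other annotated genes. Jun, Jund and Zfp36 each overlap 1 antisense gene. Whether the authors' counting used strand is not given in the sources used here, so these 5 levels are less certain than the other 5.

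The table held 17 dissected and 4 sorted libraries. A cell needed 1000 transcripts or more to be kept, which left 707 dissected cells (6 to 73 per library) and 245 sorted cells (2, 72, 80 and 91 per library). The kept cells of a library summed to 9032 to 313488 transcripts in the dissected group and 3119 to 238770 in the sorted one. Levels are given in CPM, a gene's transcripts over all transcripts of the kept cells on the usual fixed scale. Each molecule is counted once, so no length enters. Sorted replicate 1 held 2 kept cells, in which 1 transcript equals about 321 CPM, so members are given replicate by replicate, and means of other genes over the 4 sorted libraries include it. Dissected replicates 1 to 5 stood apart: they held every cell of 1 cluster, cluster 6, which no marker list named and which took in all 18 kept cells of replicate 5. Markers of HSC summed to 3077 to 5077 CPM in the sorted libraries, where replicate 1 had 4 of the 15 markers, and to 86.7 to 793 CPM in the dissected ones. No 2 kept cells had identical values.

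Differences between groups were tested with edgeR's quasi-likelihood test on transcripts summed per library, with Benjamini-Hochberg adjustment over all genes tested and 0.05 as the threshold. The SE of a log2 fold change is approximate.

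Fos, Jun and Klf6 were lower in sorted HSC than in dissected marrow cells, and none of the 8 members tested passed as higher. Egr1, too rare to meet the count filter of this test, was at 16.7 CPM over all sorted cells and 4.05 CPM over all dissected ones. Fos had 0 transcripts in all 245 sorted cells against 399 transcripts in the dissected cells. Jun was 27.9 CPM over all sorted cells and 146 CPM over all dissected ones, and Klf6 was 52.0 and 148 CPM. Of the 10 members 8 met the count filter and were tested, and 3 passed, all lower. Over all 3639 genes tested 30.3% passed, and 19.1% passed as lower. Genes low in sorted cells meet the filter through the dissected libraries, as Fos did with 0 sorted transcripts. That the 3 calls were all lower is therefore not read as a result about the members. The median log2 fold change was -1.57 over the 8 members, also with Fos at its bound, and -0.15 over all genes tested. Scaling by library totals in place of TMM moved the share of all calls that were higher from 37.0% to 48.2% and the median of all genes to 0.012, and left 3 members passing.

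Fos, which forms AP-1 with Jun proteins and does not pair with itself, was at 0 CPM in every sorted library. In the dissected libraries it ranged from 0 to 451 CPM with a median of 118 CPM, and its mean was 148 ± 142 CPM (SD, n = 17). The groups overlapped only at 0: 13 dissected libraries lay above all sorted ones, and the 4 at 0, replicates 1, 5, 6 and 8, held 6 to 18 cells each. Against a floor of 3 transcripts over the sorted cells, 5.56 CPM, Fos was at least 28.9-fold lower. The fitted log2 fold change was -7.59 (SE 1.78, adjusted p = 0.0035 by edgeR), a value that depends on the prior count and is no bound. The call held in each alternative that was run, with an adjusted p of 3.4e-05 to 0.0241. A transcript of Fos was counted in 0 of 245 sorted cells, which allows a share of up to 1.22% of cells with a counted transcript, from a floor of 3 counts; it sets no limit on cells that express the gene. In the dissected group 19.2% of cells had one (exact 95% interval 16.4 to 22.3), and 11.5% had one after each cell was thinned to 1000 tags, with 26 shallower cells left out.

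Fosb, a close relative of Fos, was rare throughout. It had 23 transcripts in the dissected cells, from 7 of 17 libraries, with 0 to 95.0 CPM per library. Sorted cells had 0, which sets it at least 1.68-fold lower, and it was too rare to meet the count filter.

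Jun, the partner of Fos in AP-1, was at 0, 29.4, 17.1 and 33.3 CPM in sorted replicates 1, 3, 4 and 5. Dissected libraries ranged from 0 to 1021 CPM with a median of 95.2 CPM, and the mean was 188 ± 244 CPM (SD, n = 17). Replicate 2 was the highest, at 1021 CPM against 362 CPM in the next, and 14 of 17 dissected libraries lay above all sorted ones. The log2 fold change was -2.90 (SE 1.04, adjusted p = 0.040 by edgeR). That call was lost without each sorted replicate in turn (adjusted p 0.0548 to 0.126), at a minimum of 2000 transcripts per cell (0.0585), without the deepest cells (0.0697, which also drops sorted replicate 1) and within the libraries that carry FE in their column names, letters the labels do not define (0.0978). Within those libraries Fos (-6.99, adjusted p = 0.00103) and Klf6 (-1.66, 0.0214) passed. Over all alternatives the log2 fold change of Jun stayed between -3.13 and -2.31. A transcript of Jun was found in 5.71% of sorted cells and 16.3% of dissected cells, and in 2.45% and 8.96% after thinning.

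Junb and Jund, the other Jun proteins, differed from Jun in their values. Junb, which can hold back the activity of Jun, was at 321, 25.2, 25.7 and 16.7 CPM in sorted replicates 1, 3, 4 and 5, the first being 1 transcript. Dissected libraries ranged from 0 to 182 CPM with a median of 37.0 CPM. The groups overlapped, and the log2 fold change of -1.30 did not pass (SE 0.62, adjusted p = 0.108 by edgeR). Jund, the most steadily expressed Jun gene in many tissues, was at 0, 67.2, 68.5 and 61.1 CPM in the same sorted libraries and 12.4 to 306 CPM in the dissected ones, with a median of 60.9 CPM. Its log2 fold change was -0.37 (SE 0.52, adjusted p = 0.634 by edgeR), and the 3 larger sorted libraries lay within the dissected range.

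Klf6 was at 321, 54.6, 42.8 and 50.1 CPM in sorted replicates 1, 3, 4 and 5. Dissected libraries ranged from 37.1 to 670 CPM with a median of 138 CPM, and the mean was 207 ± 174 CPM (SD, n = 17). The 3 larger sorted libraries lay close together, and 15 of 17 dissected libraries were above all 3. The log2 fold change was -1.81 (SE 0.58, adjusted p = 0.0168 by edgeR). The call was lost without sorted replicate 3 (0.0836), 4 (0.0604) or 5 (0.0944) and at a minimum of 2000 transcripts (0.0607), with log2 fold changes of -2.10 to -1.34 over all alternatives.

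Ier2 was the member with the highest level in sorted HSC. It was at 321, 151, 197 and 55.6 CPM in sorted replicates 1, 3, 4 and 5 and at 47.5 to 337 CPM in the dissected libraries, with a median of 106 CPM. All sorted libraries lay within the dissected range, and the log2 fold change was -0.25 (SE 0.50, adjusted p = 0.739 by edgeR). A transcript was found in 21.2% of sorted cells (exact 95% interval 16.3 to 26.9) and in 27.0% of dissected cells (23.8 to 30.5), and in 12.2% and 14.2% after thinning. The direction of this small difference turned in 4 alternatives.

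The brakes did not pass either. Dusp1 was at 0, 25.2, 8.56 and 22.2 CPM in sorted replicates 1, 3, 4 and 5 and at 0 to 131 CPM in dissected libraries, with a median of 24.9 CPM; its log2 fold change was -1.44 (SE 0.73, adjusted p = 0.133 by edgeR). Zfp36 was at 644, 37.8, 0 and 16.7 CPM in the sorted libraries and at 0 to 235 CPM in the dissected ones, with a median of 42.6 CPM; its log2 fold change was -1.69 (SE 0.81, adjusted p = 0.118 by edgeR). For both genes the groups overlapped, and the 644 CPM of Zfp36 were 2 transcripts. Zfp36 passed when the deepest cells were left out (-2.14, adjusted p = 0.038), and Junb passed in a fit of every gene with a transcript (-1.55, adjusted p = 0.0456).

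Egr1, which many signals induce together with Fos, was too rare to meet the count filter. Its value in the fit of every gene with a transcript is not reported here. It had 9 transcripts in 6 sorted cells and 10 transcripts in 6 dissected cells, or 16.7 CPM (exact Poisson interval 7.63 to 31.7) and 4.05 CPM (1.93 to 7.42). Sorted replicates 1, 3, 4 and 5 were at 0, 29.4, 0 and 11.1 CPM, and 5 of 17 dissected libraries had any, with at most 50.1 CPM.

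**Figure D1:**
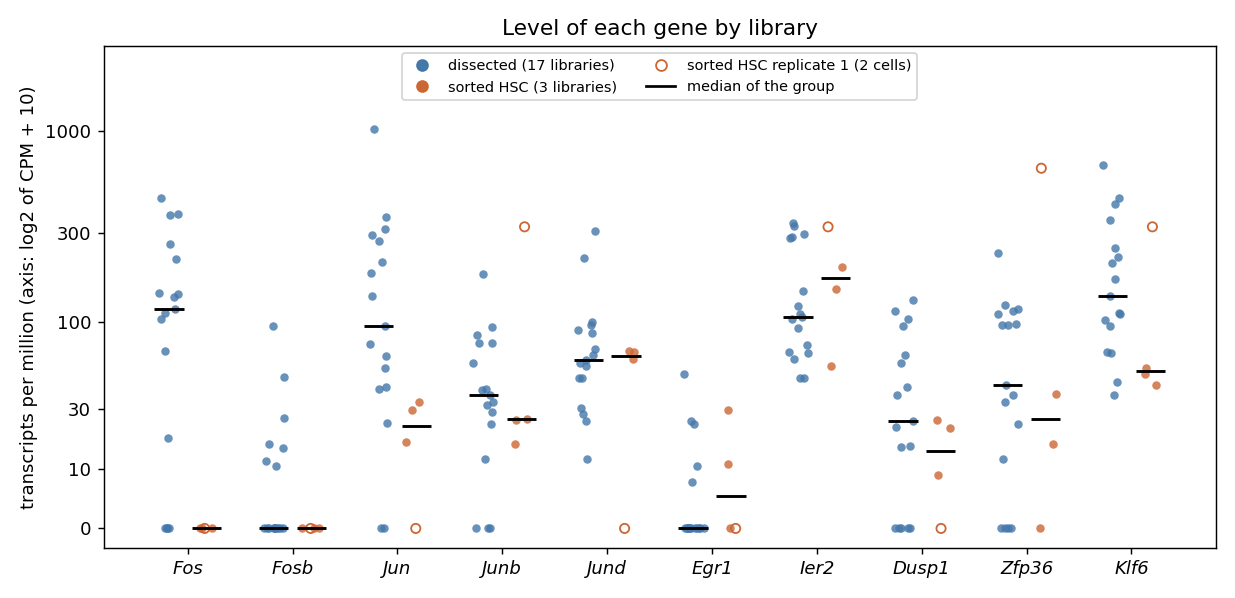
Level of each gene in each library, in CPM on an axis of log2 of CPM + 10. Blue points are the 17 dissected libraries, filled orange points the 3 larger sorted HSC libraries, the open point sorted replicate 1 with 2 cells, and black lines the median over all libraries of a group; Fos and Fosb sit at 0 in every sorted library, while Ier2 and Jund of the 3 larger sorted libraries lie within the dissected range.

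Leaving out dissected replicates 1 to 5 kept Fos, Jun and Klf6 past the threshold, with log2 fold changes of -7.59, -2.31 and -1.34. Markers of mature neutrophils differed too, at 321 to 626 CPM in the sorted and 421 to 9976 CPM in the dissected libraries, and at least 1 of their 12 genes was found in each sorted library. Without the mature neutrophil-like cells described below, the 3 genes again passed, at -7.30, -2.91 and -1.70. A lower level in a library can come from fewer cells of a type or from less RNA of the gene per cell, which sums per library do not separate.

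Other genes of the pathway were read from 4 lists. Over all 3639 genes tested in sorted HSC against dissected cells, 408 passed as higher and 696 as lower. Those counts stand beside the counts of each list. Of 41 further immediate-early and feedback genes, 15 were tested in sorted HSC against dissected cells, 8 were lower and 4 higher, and the median log2 fold change was -1.40 beside -0.15 over all genes. Ppp1r15a, which restarts translation after stress, fell from 238 ± 146 (SD, n = 17) to 28.9 ± 22.6 CPM (SD, n = 4), a log2 fold change of -2.74 (adjusted p = 0.000195 by edgeR). Btg2, an antiproliferative gene, was lower by a log2 fold change of -4.92 with 2 transcripts in all sorted cells, and Gadd45a, a growth-arrest gene, by -3.75. Id1 and Id2, inhibitors of helix-loop-helix factors, were lower at -2.61 and -3.27, and Klf2, a zinc-finger factor, had 0 sorted transcripts and was at least 10.1-fold lower. Between the neutrophil-line and erythroblast-like cells described below, these genes differed in direction in a fit of every gene with a transcript. Ppp1r15a, Btg2 and Gadd45a were lower in the neutrophil line, at -5.67, -1.89 and -1.49, the reverse of Fos. Id1, Id2 and Klf2 were higher there, at 4.76, 3.54 and 5.21.

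The 4 that were higher in sorted HSC were Dusp2, Zfp36l2, Myc and Klf10, so Dusp2 and Zfp36l2, relatives of Dusp1 and Zfp36, moved the other way from Fos. Zfp36l2, a relative of Zfp36 with the same kind of RNA-binding domain, rose from 103 ± 72.6 (SD, n = 17) to 754 ± 423 CPM (SD, n = 4), a log2 fold change of 2.79 (adjusted p = 3.1e-08 by edgeR). Dusp2, a MAP kinase phosphatase like Dusp1, rose by 3.47 (adjusted p = 8.2e-06 by edgeR), from 15.5 CPM to 342 CPM, or to 133 CPM without sorted replicate 1, as means over libraries, and Myc, the growth regulator, by 2.41 (0.000157). Mcl1, an inhibitor of cell death and among the most abundant of the list, was at 190 ± 91.7 CPM (SD, n = 17) in dissected and 185 ± 92.3 CPM (SD, n = 4) in sorted libraries.

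Of 21 kinases and factors upstream of the response, 13 were tested and 1 passed, with a median log2 fold change of -0.28. The gene that passed was Atf4, a stress-response factor, lower at -1.27 (adjusted p = 0.0141 by edgeR). Mapk14, which encodes the p38 kinase, was at 246 ± 97.8 CPM (SD, n = 17) and 296 ± 44.2 CPM (SD, n = 4) in dissected and sorted libraries. Stat3, a cytokine-activated factor, was at 228 ± 117 CPM (SD, n = 17) and 273 ± 36.7 CPM (SD, n = 4). Neither passed the test.

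Of 17 heat shock and dissociation-stress genes, 14 were tested, 2 passed as higher in sorted HSC, and the median was 0.04. Hsp90ab1, a chaperone, rose by 0.86 on the log2 scale (adjusted p = 0.00834 by edgeR), and Txnip, an inhibitor of thioredoxin that is also on the list of HSC markers, by 2.73 (8.7e-08). Hspa8 and Hsp90aa1, abundant chaperones, were at 1023 ± 430 and 823 ± 354 CPM (SD, n = 17) in dissected and at 2104 ± 781 and 1193 ± 783 CPM (SD, n = 4) in sorted libraries. Without sorted replicate 1, Hspa8 was at 1726 ± 241 and Hsp90aa1 at 835 ± 388 CPM (SD, n = 3). Their log2 fold changes of 0.56 and -0.15 did not pass. The stress-inducible Hspa1a and Hspa1b, with 19 and 13 dissected transcripts, had 0 in the sorted cells.

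Of 22 partners of AP-1 and CREB proteins, 10 were tested, 6 were lower in sorted HSC and none higher, with a median of -1.63. Cebpe and Cebpd, factors of granulocyte differentiation of which Cebpe is also on the myelocyte marker list, were lower at -6.78 and -5.65 with 1 sorted transcript each. Both met the count filter through the dissected libraries, so the count of 6 is not read as a result about the list. Nfe2l2, the antioxidant regulator, was lower at -1.36 (adjusted p = 0.0138 by edgeR), and Cebpb and Jdp2 at -1.89 and -1.94. Nfe2, a factor of red cell and platelet precursors and the most abundant of the list, was at 265 ± 144 CPM (SD, n = 17) in dissected and 495 ± 133 CPM (SD, n = 4) in sorted libraries and did not pass.

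**Figure D2:**
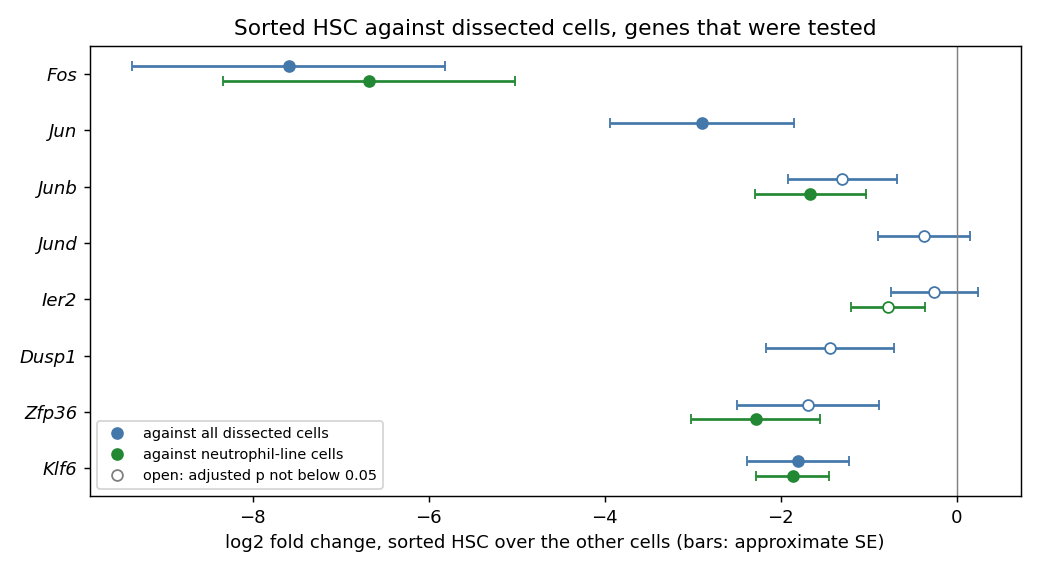
Log2 fold change of sorted HSC over all dissected cells (blue) and over neutrophil-line cells (green), with the approximate SE as bars and open points where the adjusted p was not below 0.05. Only genes that passed the count filter of a comparison are drawn; of the 10 members Fos lies farthest left in both, at -7.59 and -6.68, fitted values that depend on the prior count because its sorted count was 0.

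The dissected cells were clustered without the 10 members and the 4 lists, and clusters were named from markers, so that the members could be compared between classes. Named classes were erythroblast-like (172 cells), myelocyte-like (140), promyelocyte-like (68), monocyte/dendritic-like (58), mature neutrophil-like (56), eosinophil-like (43), macrophage-like (18), muscle-like (10), plasma cell-like (9) and megakaryocyte-like (8). Clusters 2 (71 cells, led by Car1 and Minpp1) and 6 (54 cells) stayed unnamed. Levels pooled over a class carry exact 95% Poisson intervals, which cover counting error only.

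Mature neutrophil-like cells had the highest pooled levels of Fos, Junb, Ier2, Zfp36, Klf6 and Dusp1 of all classes. Their 10 members together came to 4418 CPM (4004 to 4863), against 673 CPM (597 to 753) in myelocyte-like, 314 CPM (265 to 371) in promyelocyte-like and 323 CPM (263 to 389) in erythroblast-like cells. Plasma cell-like cells, 9 in all, were next at 4191 CPM, followed by eosinophil-like cells at 1888 CPM, cluster 6 at 1565 CPM and monocyte/dendritic-like cells at 1368 CPM. Sorted HSC were at 362 CPM (314 to 418), near the erythroblast-like and promyelocyte-like levels. Cluster 2 was lowest, at 246 CPM (199 to 300).

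The classes differed in which members made up this sum. In mature neutrophil-like cells Fos was at 997 CPM, Ier2 at 949 CPM, Zfp36 at 897 CPM, Junb at 576 CPM and Klf6 at 489 CPM, with Jun at 63.7 CPM (23.3 to 138). In eosinophil-like cells Fos was at 541 CPM and Jun at 499 CPM (395 to 629), and in monocyte/dendritic-like cells at 460 and 380 CPM (304 to 470). Jun in those classes thus lay above the interval of the mature neutrophil-like cells, whereas their Fos lay below it (805 to 1219). In plasma cell-like cells Jun reached 2327 CPM, from 53 transcripts in 4 of 9 cells.

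Erythroblast-like cells had Jund at 119 CPM (84.2 to 162) and Dusp1 at 106 CPM (74.0 to 148), while Fos was at 15.2 CPM, Jun at 18.2 CPM, Junb at 9.12 CPM, Ier2 at 15.2 CPM and Zfp36 at 3.04 CPM. Prdx2, which overlaps Junb on the other strand, was at 5353 CPM in the same cells and 258 CPM in mature neutrophil-like cells, the reverse of Junb. In myelocyte-like cells Klf6 at 244 CPM and Ier2 at 173 CPM were the highest members, and Fos was at 78.6 CPM. Macrophage-like cells had Jun at 213 CPM and Jund at 177 CPM, and megakaryocyte-like cells Klf6 at 385 CPM with Fos at 0. Fosb was found most in cluster 6, at 43.3 CPM from 6 transcripts, apart from 4 transcripts in 1 plasma cell-like cell.

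**Figure D3:**
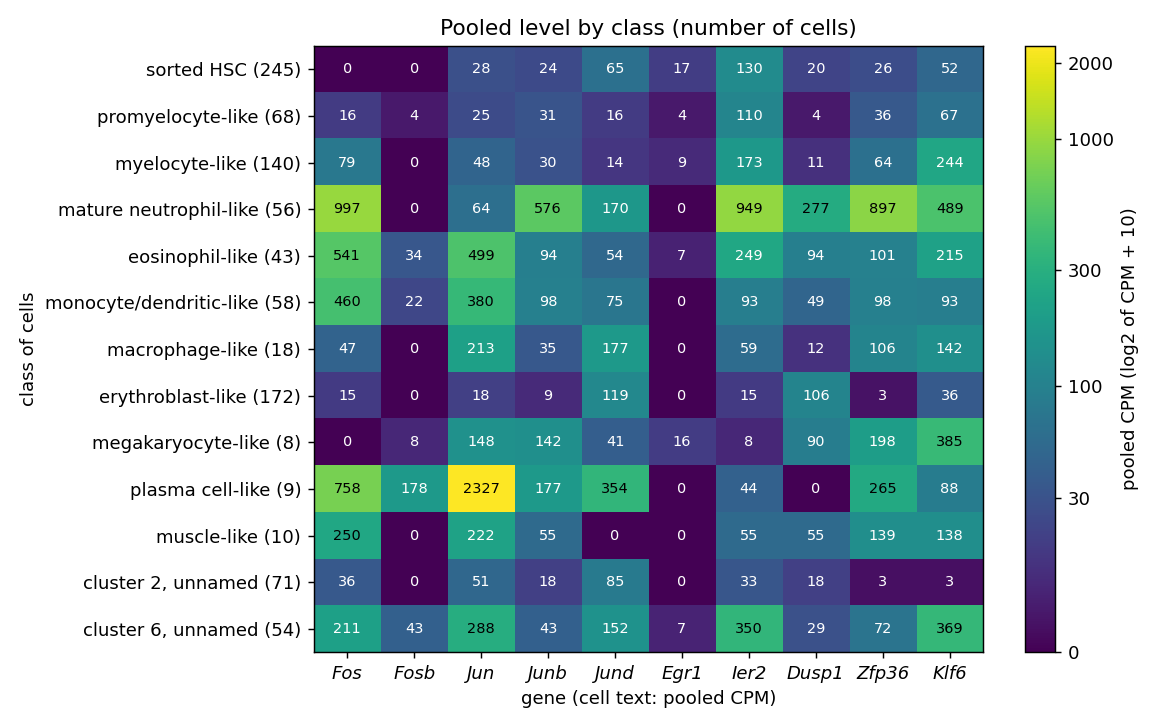
Pooled level of each gene in each class of cells, in CPM, with the number of cells in brackets and colour on log2 of CPM + 10. The row of mature neutrophil-like cells is brightest for Fos, Ier2, Zfp36, Junb and Klf6, whereas Jun is brightest in plasma cell-like, eosinophil-like and monocyte/dendritic-like cells, and Jund and Dusp1 are the highest members in erythroblast-like cells.

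The level of a class also varied between libraries. In the 5 libraries with at least 5 mature neutrophil-like cells, replicates 3, 9, 10, 16 and 17, Fos was at 587, 1323, 597, 0 and 1274 CPM. Ier2 in the same libraries was at 660, 1410, 654, 759 and 951 CPM, and Zfp36 at 366, 1140, 595, 1415 and 1395 CPM. Ier2 and Zfp36 were thus present in every one, while Fos was at 0 in the 5 cells of replicate 16. In 4 libraries with enough monocyte/dendritic-like cells, replicates 9, 10, 11 and 13, Fos was at 1406, 157, 444 and 278 CPM and Jun at 446, 175, 555 and 767 CPM. Cluster 6 in replicates 2, 3, 4 and 5 had Jun at 228, 897, 39.6 and 40.6 CPM and Klf6 at 514, 300, 596 and 225 CPM.

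Within the neutrophil line, mature neutrophil-like cells were compared with myelocyte-like cells of the same 4 libraries, replicates 9, 10, 16 and 17, with library as a block. Zfp36 was higher in mature neutrophil-like cells in 4 of 4 libraries, at 1136 ± 382 against 143 ± 74.3 CPM (SD, n = 4), a log2 fold change of 3.0 (SE 0.41, adjusted p = 1.8e-07 by edgeR). Ier2 was higher in 4 of 4, at 944 ± 334 against 236 ± 46.0 CPM (SD, n = 4), a log2 fold change of 2.04 (SE 0.38, adjusted p = 2.7e-05 by edgeR). These were the only members to pass the count filter, which they did through their levels in the mature cells. Both passed the test, beside 27.8% of 234 genes tested that passed as higher. Because the filter kept them through the group where they were high, that both passed is not read as a result about the members. The lowest mature values were 595 CPM for Zfp36 and 654 CPM for Ier2, and the highest myelocyte-like values 250 and 283 CPM. The share of all genes whose values were likewise apart was not computed.

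A fit of all 9392 genes with a transcript, in which 0.767% passed as higher, tested 8 members and called 4 higher. Only 234 of these genes met the count filter, so that share rests mostly on genes with few transcripts. It is no yardstick for the members. Of the 234 genes 27.8% passed as higher in the filtered fit. Fos was 3.05 higher on the log2 scale (SE 0.51, adjusted p = 5.4e-07 by edgeR) and Junb 4.05 higher (SE 0.65, adjusted p = 2.3e-07 by edgeR), with Ier2 at 1.62 and Zfp36 at 2.58. The median gene was at -0.92 in that fit and at -0.52 with library totals, which moved the share of all calls that were higher from 30.3% to 57.5%. Fos was higher in 3 of 4 libraries, at 1323, 597, 0 and 1274 CPM in replicates 9, 10, 16 and 17 against 80.1, 109, 41.5 and 0 CPM in myelocyte-like cells. Junb was higher in 4 of 4, at 1230, 59.3, 542 and 886 CPM against 0, 43.5, 41.5 and 66.4 CPM.

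Klf6 did not pass, although it was higher in 4 of 4 libraries, at 532 ± 165 against 224 ± 114 CPM (SD, n = 4; log2 fold change 0.61, SE 0.45, adjusted p = 0.908 by edgeR). Dusp1 at 2.81 (adjusted p = 0.109 by edgeR) did not pass but did so in 4 alternatives, among them library totals (3.29, 0.0234), and Jund at 1.84 passed at a minimum of 500 transcripts (2.71, 0.00928). Jun at 0.37 passed in no alternative. Replicate 9 held 14 of the 39 mature cells. Without it, in the fit with no filter, Fos (adjusted p = 0.0875 by edgeR), Junb (0.434) and Ier2 (0.929) lost their calls and Zfp36 kept its own (0.0216). DESeq2 with no filter called Junb, Ier2 and Zfp36 but not Fos (0.107). In the filtered fit Ier2 kept its call in all 12 alternatives that tested it, among them the one without replicate 9. Its adjusted p there was at most 0.0125 by edgeR or DESeq2. Ier2 entered the filtered fits through its level in the mature cells, so these calls are not read as support for its result.

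**Figure D4:**
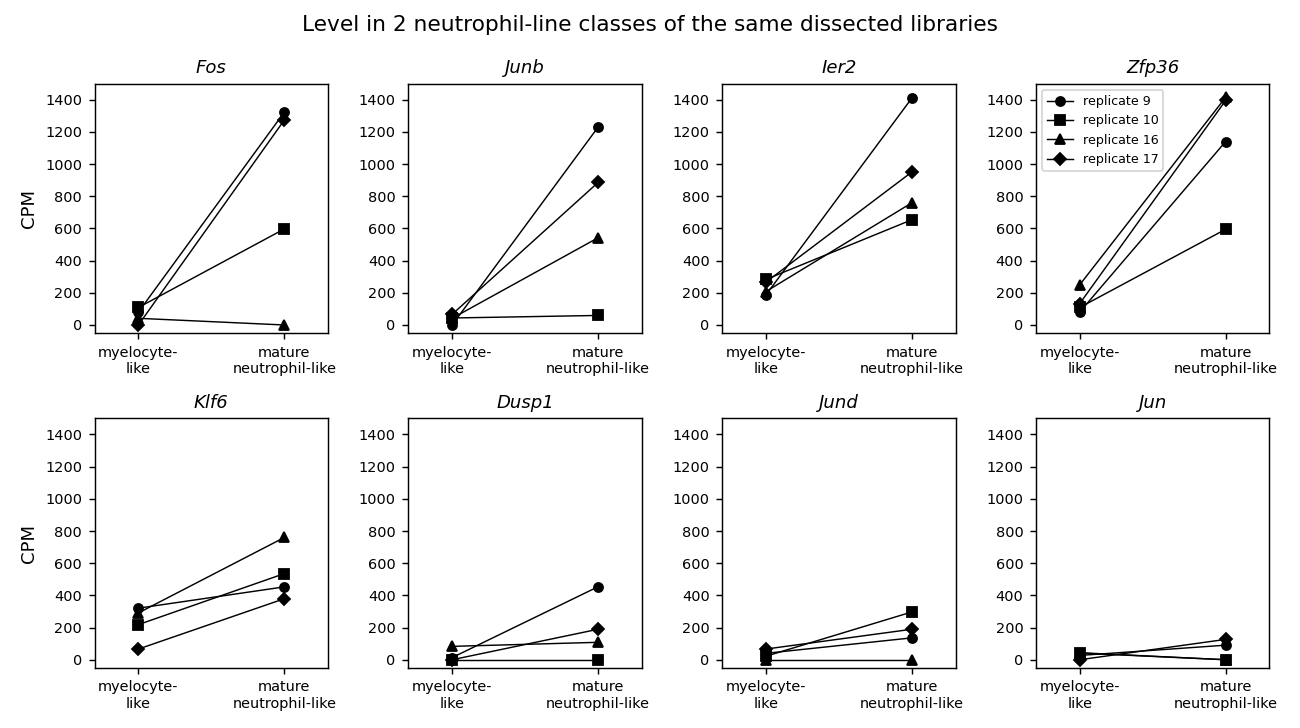
CPM of 8 genes in myelocyte-like and mature neutrophil-like cells of the same 4 dissected libraries, 1 line per library. Lines for Zfp36, Ier2, Junb and Klf6 rise in all 4 libraries, Fos rises in 3 and is at 0 in the mature cells of replicate 16, and Jun has no common direction.

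Shares of cells show the same classes. After thinning to 1000 tags, Ier2 was found in 30 of 52 mature neutrophil-like cells (57.7%, exact 95% interval 43.2 to 71.3), Zfp36 in 44.2% and Fos and Junb in 42.3% each. In myelocyte-like cells the shares were 18.2% for Ier2, 9.49% for Zfp36, 5.84% for Fos and 2.92% for Junb. Erythroblast-like cells, given beside them, had Ier2, Zfp36 and Junb in 0.649% each and Fos in 3.25% of 154 cells; the part of free RNA in these shares was not tested. Without thinning, Fos was found in 44.6% of mature neutrophil-like cells (median 1407 transcripts), 14.3% of myelocyte-like cells (2722) and 2.91% of erythroblast-like cells (1621). Jund and Dusp1 were found in 13.5% and 21.2% of thinned mature neutrophil-like cells, 9.74% and 11.7% of erythroblast-like cells and 1.46% and 2.19% of myelocyte-like ones.

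Most mature neutrophil-like cells had more than 1 member. At 1000 tags per cell, 71.2% of mature neutrophil-like cells had 2 or more of the 10 genes and 5.77% had none, whereas 66.1% of sorted HSC and 71.4% of erythroblast-like cells had none. The most in 1 mature neutrophil-like cell was 6 of the 10. Before thinning, 20 of the 25 mature neutrophil-like cells with Fos also had Ier2, 16 had Zfp36, 15 had Junb and 12 had Klf6, while Ier2 was found in 39, Zfp36 in 32, Junb in 25 and Klf6 in 29 of all 56 such cells. Of the 13 cells with Dusp1, 10 had Fos, which was in 25 of all 56. In monocyte/dendritic-like cells 18 of the 26 cells with Fos had Jun, beside 27 of all 58, and in eosinophil-like cells 13 of 24, beside 16 of all 43. Whether members met in a cell more often than their shares alone would give was not tested. Deeper cells show more genes, so these joint counts describe cells of unequal depth.

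**Figure D5:**
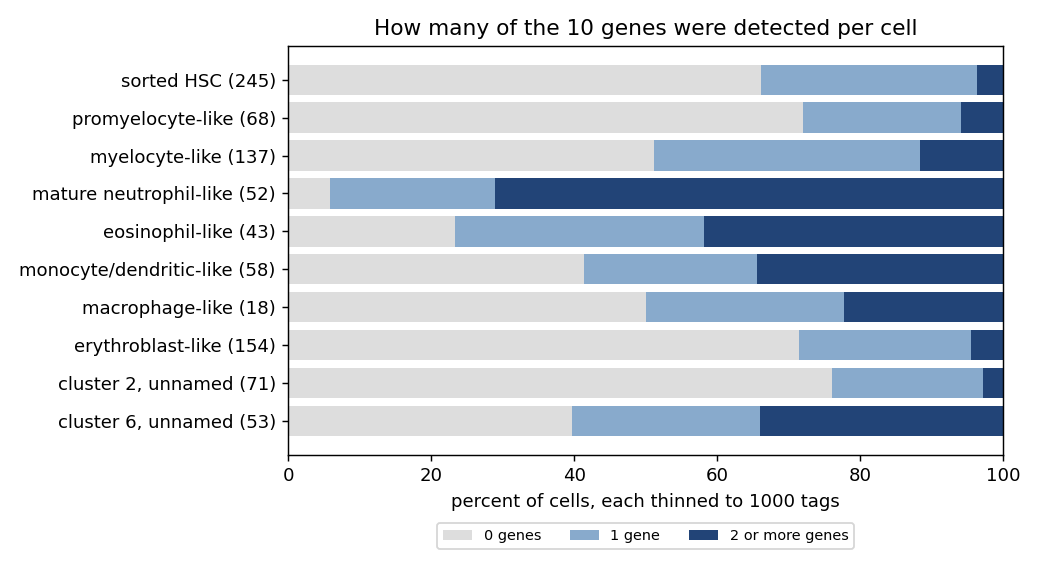
Percent of cells with 0, 1 or at least 2 of the 10 genes after each cell was thinned to 1000 tags, with the number of cells in brackets. Mature neutrophil-like cells have the smallest share with none, 5.77%, and the largest with 2 or more, 71.2%; sorted HSC, promyelocyte-like and erythroblast-like cells have 2 or more in 3.67%, 5.88% and 4.55%.

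Sorted HSC were next compared with the neutrophil line alone, that is, promyelocyte-like, myelocyte-like and mature neutrophil-like cells together, in 12 libraries. Fos, Junb, Klf6 and Zfp36 were lower in sorted HSC, 4 of the 5 members tested, while 26.8% of the 1957 genes tested passed as lower. Fos had 0 transcripts in the sorted cells and could pass the count filter only through the neutrophil line. Junb, Klf6 and Zfp36 were also low in the 3 larger sorted libraries. The count of 4 of 5 is therefore not read as a result about the members. Zfp36 fell from 121 ± 95.1 CPM (SD, n = 12) to 18.2 ± 18.9 CPM in the 3 larger sorted libraries (SD, n = 3), beside the 644 CPM of replicate 1 that the fit also includes, a log2 fold change of -2.29 (SE 0.73, adjusted p = 0.0129 by edgeR). Klf6 fell from 192 ± 79.1 (SD, n = 12) to 49.1 ± 5.94 CPM (SD, n = 3), beside 321 CPM in replicate 1, at -1.87 (SE 0.41, adjusted p = 0.000157 by edgeR), and Junb was lower at -1.66 (SE 0.63, adjusted p = 0.0256 by edgeR). Fos was at least 23.5-fold lower (fitted value -6.68, adjusted p = 0.00472 by edgeR).

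Ier2 was at 230 ± 134 CPM (SD, n = 12) in the neutrophil line and at 135 ± 72.1 CPM (SD, n = 3) in the larger sorted libraries, and its -0.78 did not pass (SE 0.42, adjusted p = 0.123 by edgeR), except at a minimum of 500 transcripts (-0.92, 0.0392). The calls of Junb and Zfp36 were lost with DESeq2 (adjusted p = 0.0583 and 0.0831). They were also lost without sorted replicate 4 (0.0607 and 0.0535) or 5 (0.111 and 0.0667), and that of Junb without replicate 3 (0.0825). The comparisons of sorted HSC share the same 4 sorted libraries, so they are not independent of each other.

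Against erythroblast-like cells the members went in both directions. No member passed the count filter, so a fit of every gene with a transcript was used (13120 genes, of which 45.7% passed; the median gene was 1.18 higher in sorted HSC, and 0.98 higher with library totals). Of 9 members 5 passed, 3 higher and 2 lower, beside 4975 higher and 1023 lower of all 13120 genes. That number is not read as a result about the members. Ier2 was higher in sorted HSC at 3.13 (SE 0.63, adjusted p = 9.4e-06 by edgeR). Zfp36 (adjusted p = 0.00069 by edgeR) and Egr1 (0.00711) also passed as higher, and the erythroblast-like cells of this fit had 0 transcripts of both. Pooled sorted levels of the 2 genes were 2.69-fold and 1.73-fold above a floor of 3 erythroblast-like transcripts, 9.64 CPM. These ratios are no bounds, since the counting error of the sorted levels is left out. The sorted interval of Egr1, 7.63 to 31.7 CPM, reached below that floor. The fitted values of Zfp36 and Egr1, 3.87 and 3.19, depend on the prior count. Dusp1 was lower at -2.04 (SE 0.60, adjusted p = 0.00279 by edgeR). Fos was lower too (fitted value -2.74, adjusted p = 0.0198 by edgeR). Its pooled erythroblast-like level, 12.9 CPM, was 2.31-fold above the sorted floor of 5.56 CPM, again without the counting error of that level.

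In the 10 libraries with at least 5 erythroblast-like cells, Ier2 ranged from 0 to 71.0 CPM with a median of 0, Zfp36 was at 0 in all 10 and Dusp1 ranged from 0 to 249 CPM with a median of 106 CPM. For Ier2, 3 of the 4 sorted libraries, at 151 to 321 CPM, lay above this range and replicate 5 within it at 55.6 CPM. The calls of Egr1 and Fos were lost without sorted replicate 3 (adjusted p = 0.148 and 0.0688), and that of Fos without replicate 5 (0.0528). DESeq2 called 2 members, gave no adjusted p for 2 and left Zfp36 at 0.24.

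Neutrophil-line and erythroblast-like cells of the same 9 libraries differed in both directions. Again no member passed the filter, which kept 662 genes, 520 of them called. The fit of every gene with a transcript covered 12594 genes, of which 25.9% passed. Of these calls 75.2% were higher, or 60.8% with library totals, and the median gene was at 0.65, or 0.46. Fos, Ier2, Zfp36 and Klf6 were higher in the neutrophil line in 9 of 9 libraries and Junb in 7. Their log2 fold changes were 3.31 for Fos (SE 0.57), 3.91 for Ier2 (0.49), 6.19 for Zfp36 (0.81; at least 12.1-fold higher, since erythroblast-like cells had 0), 2.46 for Klf6 (0.42) and 2.92 for Junb (0.67), all with adjusted p of 0.000114 or less by edgeR. Ier2 was at 96.7 to 426 CPM in the neutrophil line and 0 to 71.0 CPM in erythroblast-like cells, and Zfp36 at 11.5 to 221 CPM against 0.

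Jund and Dusp1 were lower in the neutrophil line, Jund in 8 of 9 libraries (-1.55, SE 0.45, adjusted p = 0.00379 by edgeR) and Dusp1 in 7 of 9 (-1.46, SE 0.47, adjusted p = 0.00922 by edgeR). Median levels were 11.9 against 112 CPM for Jund and 19.0 against 107 CPM for Dusp1, with overlapping ranges. By stage, pooled Jund was at 170 CPM in mature neutrophil-like, 13.8 CPM in myelocyte-like and 15.7 CPM in promyelocyte-like cells, and Dusp1 at 277, 11.5 and 4.47 CPM. Erythroblast-like cells, at 119 and 106 CPM, lay below the mature cells and above the other stages in pooled level; these differences by stage were not tested. At a minimum of 2000 transcripts Fos (0.60, adjusted p = 0.728) and Junb (1.48, 0.235) lost their calls. The call of Dusp1 was lost without replicate 15 (-1.16, adjusted p = 0.0714) and with 4 other settings, and that of Jund was lost at Leiden resolution 0.5 (-0.97, adjusted p = 0.0952). Jun was at 0.81 (adjusted p = 0.512 by edgeR) and Fosb and Egr1 at 0.55 and 0.81, none of which passed here; Jun passed at Leiden resolution 0.5 (2.06, adjusted p = 0.00986) and with classes by marker share (1.64, 0.000105).

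The summed level of the 10 members in a dissected library ranged from 285 CPM in replicate 8 to 2300 CPM in replicate 2, with a median of 770 CPM, against 420, 360 and 267 CPM in sorted replicates 3, 4 and 5 and 1607 CPM, or 5 transcripts, in the 2 cells of sorted replicate 1. Replicates 2, 3, 4 and 9 were highest, from 1684 CPM up, with the next at 1003 CPM. Mature neutrophil-like cells made up 17.9%, 10.0% and 26.9% of the cells of replicates 3, 4 and 9 and none of replicate 2. Without those cells the sums of replicates 3, 4 and 9 were 1849, 1487 and 1204 CPM, so each stayed above the median. In replicate 2, Jun alone gave 1021 CPM.

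Among the genes whose level followed this sum most closely over the 17 dissected libraries, of 1704 genes compared, were Cd53, a leukocyte tetraspanin (Spearman's rho 0.82, Pearson's r 0.47), Hcls1, a blood-cell signalling protein (0.81 and 0.77), Tyrobp, an adaptor of myeloid receptors (0.79 and 0.82), and Tpm3, a tropomyosin (0.76 and 0.67). These values describe libraries that share differences in depth and cell makeup.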

How the data were processed

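Libraries fall into 2 groups by the subtype label, and replicate numbers only name them. No animals are named, so a p-value reflects the spread among libraries, which may be technical. The submitters' processing notes name BWA 0.6.2-r126 and mm10; how reads were counted is not stated there. The authors deposited estimated counts of transcripts, corrected for tags drawn more than once, for 23536 genes in 1915 cells. Values return to whole tags within 0.01. The authors' deposited per-library files of dissected cells hold estimated counts too and served as an alternative that adds dissected replicate 18, absent from the main table's columns; sorted replicate 2 was not analysed here.

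Cells under 1000 transcripts were dropped. No doublet caller was run, as cells were dissected or sorted singly per the labels; one alternative dropped the 5% of cells with most transcripts. Dissected cells were clustered without the members and lists (2000 variable genes, 30 principal components, 15 neighbours, Leiden resolution 1, seed 1; scanpy 1.11.5, leidenalg 0.10.2), and clusters were named from marker lists, so class names are rebuilt here. Transcripts were summed per library, or per library and class with at least 5 cells (2 for sorted), rounded, and tested with edgeR 4.0.16 in R 4.3.3 (TMM, filterByExpr, robust quasi-likelihood, Benjamini-Hochberg at 0.05), a step tested on simulated data. The approximate SE divides the log2 fold change by the root of F. Where the filter left members out, a fit of every gene with a transcript was reported; its own alternatives, and those by column-name letters and without mature neutrophil-like cells, were chosen after seeing the data. Other alternatives were DESeq2 1.42.0, library totals, cell minimums, clusterings and left-out libraries. Thinning drew 1000 tags per cell. Intervals are exact at 95%, and the floor for a count of 0 is 3 counts. Both cover counting error only. A fold given as at least, or set against a floor, divides a pooled level by that floor without the level's own counting error.

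The members, lists and tests were chosen with earlier results of these data known. Named genes were all members, the 3 most abundant genes of each list, list genes past the threshold with a log2 fold change of at least 2 in either direction in sorted against dissected, and the 5 genes most like the members' sum by Spearman's rho; other list genes were chosen after their values were seen. Some genes that the rule names are not reported here. Likeness used log2 of CPM + 10 over genes with a mean of at least 100 CPM.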

Additional observations from a re-analysis of the deposited data

Results flagged for a closer look

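In groups of 4 to 10 libraries, a library was picked out where its gap to the nearest other exceeded the 95% critical value of Dixon's test. This was so for 10 of 32 groups of values. The test's rate of 1 in 20 is for normally distributed values. Many of these CPM rest on 0 to a few transcripts in libraries of unequal size, so that rate is no measure of chance here. In sorted replicate 1, with 2 cells, Junb (321 CPM), Klf6 (321 CPM) and Zfp36 (644 CPM) were far above the other sorted libraries, from 1 or 2 transcripts each, and Jund was at 0. In dissected replicate 3, the erythroblast-like cells had Fos and Ier2 each at 71.0 CPM, or 2 transcripts each, against at most 37.2 and 34.9 CPM in the other libraries. In dissected replicate 12, the myelocyte-like cells had Jun at 259 CPM (6 transcripts), with at most 43.5 CPM elsewhere, and Egr1 at 43.0 CPM (1 transcript), with 0 elsewhere. In dissected replicate 16, the myelocyte-like cells had Dusp1 at 83.1 CPM (2 transcripts in 1 cell) and Zfp36 at 250 CPM (6 transcripts), against at most 43.0 and 133 CPM elsewhere.

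Dissected replicate 18, which entered no comparison because only the authors' per-library files hold it, had members at a summed 473 CPM over 83 kept cells, among them Jund at 118 CPM, Klf6 at 107 CPM, Jun at 62.0 CPM and Fos at 51.7 CPM.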

How the results depend on the processing

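In sorted HSC against dissected cells 3 members passed, 1 at a minimum of 2000 transcripts and 1 to 2 without a sorted replicate (1 without replicate 3, 4 or 5). Against the neutrophil line 4 passed, 2 with DESeq2, 1 at 2000 transcripts and 2 to 4 without a sorted replicate (2 without replicate 4 or 5). For mature neutrophil-like against myelocyte-like cells 2 passed, 4 with no filter, 0 at 500 transcripts, where none was tested, 1 at Leiden resolution 0.5 and 1 to 3 without a dissected replicate (1, the only one tested, without replicate 9). In both comparisons with erythroblast-like cells the filter left 0 members to test by edgeR or DESeq2, and without it 7 (neutrophil line) and 5 (sorted HSC) passed. Of the fits without a filter, the 7 became 4 at 2000 transcripts (6 to 7 without a dissected replicate), the 5 became 2 with DESeq2 and 3 to 5 without a sorted replicate (3 without replicate 3), and the 4 of mature against myelocyte-like cells became 1 to 4 without a dissected replicate (1 without replicate 9). The comparison of mature with myelocyte-like cells at 2000 transcripts was not run, since too few libraries remained. No paired analysis was possible because replicate numbers pair no sorted with dissected libraries; within dissected libraries the library was a block, and without it the counts stayed at 7, 2 and 4.

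Directions turned where values were small, and none of the turned values passed. For sorted HSC against dissected cells, Jund was at 0.068 in libraries with FE in their column names, and Ier2 at 0.17 without dissected replicates 1 to 5, 0.042 without mature neutrophil-like cells, 0.26 in the FE libraries and -0.64 to 0.18 without a sorted replicate. For neutrophil-line against erythroblast-like cells, Jun was at -0.32 at 2000 transcripts. For sorted HSC against erythroblast-like cells, Jun was at -0.81 at 2000 transcripts, -0.036 at Leiden resolution 2 and -0.68 with classes by marker share. For mature neutrophil-like against myelocyte-like cells, Jun was at -0.43 at resolution 2, -0.96 at 0.5, -0.78 with classes by marker share and -0.38 to 1.04 without a dissected replicate, and Jund at -0.22 at resolution 0.5. The cause was not tested. Fosb and Egr1 had at most 23 transcripts in a group.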

Other observations

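Column names of many dissected cells hold a number that several cells of a library share. The labels do not define it, and whether it marks the structure a cell came from was not tested. Within libraries, 329 pairs of cells shared the number and 18412 other pairs did not or lacked one. Of pairs in which at least 1 cell had Fos, both had it in 18 of 94 pairs that shared the number (19.1%) and in 921 of 6162 other pairs (14.9%). For Ier2 the shares were 23.3% and 18.3%, for Klf6 22.1% and 17.6%, for Jun 6.33% and 9.45%, and for Dusp1 7.46% and 7.69%. Cells enter several pairs and differ in depth and type, and the differences were not tested.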
